A study of Mus musculus with 8 samples.

Results

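Mouse bone marrow cells that carry a floxed Thoc5 gene but had never been given tamoxifen were compared before and after 3 days under CSF-1. They are represented by 2 of the 8 dual-colour microarrays of the series, replicates 1 and 2 of the flox cells without tamoxifen, chosen by their titles. On each of these arrays cytoplasmic RNA of day 3 was set against cytoplasmic RNA of day 0 of the same genotype and the same biological experiment. The dyes were exchanged in experiment 2, so that experiment, slide and dye direction form 1 and the same split. The cells have the genotype ERT2 Cre Thoc5 (flox/flox), which pairs a Cre recombinase that tamoxifen activates with its floxed target, and were given no tamoxifen; they come from mice labelled C57BL/6 x B6:129 Ola. The most similar group by its labels is ERT2 Cre control cells without tamoxifen (2 arrays). It shares the Cre, the background label and the handling and lacks the floxed alleles. Whether the 2 groups differ elsewhere in the genome was not tested. The third group used here is the same flox cells with tamoxifen (2 arrays), whose arrays carry the same day 0 RNA as the untreated flox cells. The labels call the cells bone marrow derived macrophages on both days, and do not say how many mice were pooled, whether controls were littermates or which exons are floxed. With 1 RNA pair per experiment, the p-values below measure only the spread between these few arrays.

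CSF-1 is the growth factor that keeps monocytes and macrophages alive and drives their formation from bone marrow progenitors through the receptor tyrosine kinase Csf1r. Fresh bone marrow also holds developing neutrophils, megakaryocytes, erythroblasts, lymphocyte precursors and stem cells, and these lineages depend on other factors. Thoc5 is a subunit of the THO part of the TREX complex, which couples transcription to the export of mRNA from the nucleus. RNA was taken from whole cultures, in which fewer cells of a type and less RNA per cell cannot be told apart.

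Across 18000 genes, 10306 (57.3%) changed between day 0 and day 3 in untreated flox cells by limma at a Benjamini-Hochberg adjusted p under 0.05. Of these, 4311 rose (23.9% of all genes tested) and 5995 fell (33.3%). The counts of list members that rose or fell in these cells stand beside these shares. At least a 2-fold change was reached by 597 of the genes that rose and by 1293 of those that fell. The median change of all genes was -0.05 on the log2 scale. The ratios of the 2 arrays correlated across genes at r = 0.93 (Spearman's rho 0.89), with an SD of 0.26 for their difference; genes are not independent replicates, and both arrays share the design and the direction of the comparison. The sign was the same on both arrays for 10266 of the called genes. In the channels of these arrays, 53.1% to 57.6% of probes stood well above background, and no spot was saturated.

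**Figure D1:**
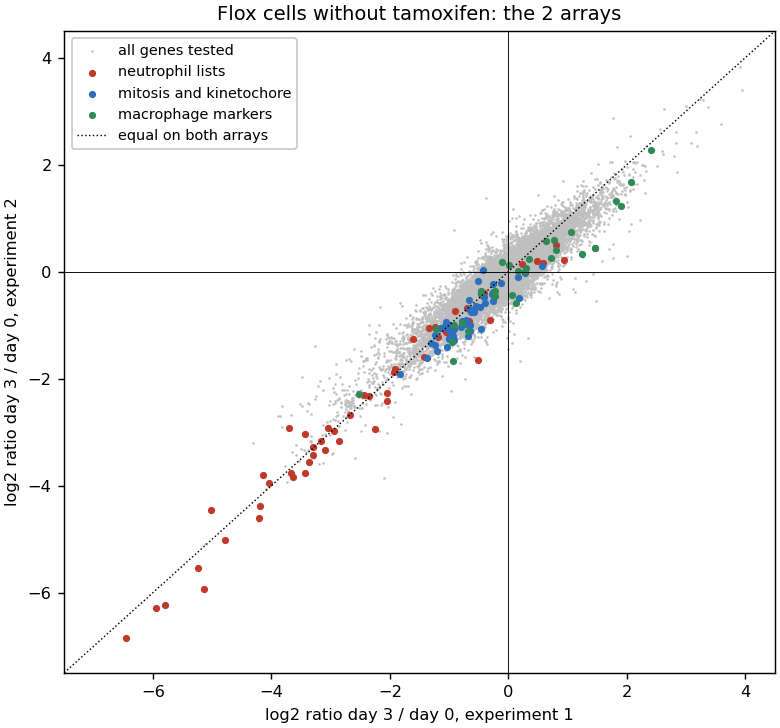
Log2 ratio of day 3 over day 0 of every gene tested on the array of experiment 1 (x axis) and of experiment 2 (y axis), flox cells without tamoxifen. Members of the 3 neutrophil lists (red) reach from about the centre down to Camp at -6.46 and -6.85, mitosis genes (blue) lie mostly below 0 on both arrays, and macrophage markers (green) lie on both sides of 0.

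Thoc5 itself was measured well above background on all arrays of these cells. Its probe of 60 bases lies at chr11:4828807-4828866 on the plus strand of the mm9 build, and is shown because it is the read-out of the floxed gene.
Thoc5: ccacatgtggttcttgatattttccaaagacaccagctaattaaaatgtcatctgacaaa
The log2 ratio of Thoc5 was -0.74 in experiment 1 and -0.77 in experiment 2. Without tamoxifen, Thoc5 RNA fell by 0.76 on the log2 scale (SE 0.07, adjusted p = 0.000267). In control cells the ratios were -0.40 and -0.28, and the difference between the genotypes was -0.42 (SE 0.10, adjusted p = 0.073). In flox cells with tamoxifen the same probe gave -3.04 and -3.02, far below both untreated arrays.

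The 2 arrays did not agree on Csf1r, the CSF-1 receptor. Its brightest probe gave 0.13 in experiment 1 and -0.58 in experiment 2, a mean of -0.22 (SE 0.07, adjusted p = 0.034). Control cells showed the same split, with 0.25 and -0.44. A further Csf1r probe gave 1.20 and 0.91, and another 0.39 and 0.11, so that the direction for this gene depends on the probe as well as on the experiment, and no direction is drawn from it. Csf1, the ligand gene, had ratios of -0.84 and -1.24 and fell by 1.04 (adjusted p = 0.00274); its further probes gave -0.48 and -0.60. Of 23 measured genes of the CSF-1 receptor and its signalling, 2 rose (beside 23.9% of all genes), 8 fell (beside 33.3%) and 13 did not pass. Csf1r is counted as a fall here by its brightest probe, although no direction is drawn from it. The list's median was -0.11, and -0.04 under median centring. Socs1, a feedback inhibitor of cytokine signalling, rose (0.57 and 0.52). Among those that fell were Pik3cd, a PI3-kinase catalytic subunit (-0.93 and -1.10), and Cish, a further feedback inhibitor (-0.54 and -1.04).

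The largest changes were falls of genes of developing neutrophils. Camp, which encodes the antimicrobial peptide cathelicidin, had log2 ratios of -6.46 and -6.85. That was a mean fall of 101-fold (log2 change -6.65, SE 0.08, adjusted p = 4.8e-07). S100a8 and S100a9 form calprotectin, the main cytosolic protein of neutrophils. S100a8 gave -5.95 and -6.29, which is 69.5-fold lower at day 3, and S100a9 gave -5.15 and -5.93, which is 46.4-fold lower. Chil3, a chitinase-like secreted protein, gave -5.80 and -6.24, and Ctsg, the granule protease cathepsin G, gave -5.24 and -5.54. On no array did any of the 15 genes with the largest fall change by less than 3.73, but they were ranked on these same arrays. Of these 15 genes 11 belong to the neutrophil lists. The remaining 4 are Plac8, Myb, the predicted gene I830127L07Rik and LOC620515, which the array's annotation calls similar to secretory protein.

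Primary granules are made first in neutrophil development, secondary and tertiary granules later. Of 11 measured primary granule genes 10 fell and 1 rose, with a median of -2.96. Mpo, myeloperoxidase, gave -3.64 and -3.84, and Ms4a3, a membrane protein of granulocyte and monocyte progenitors, gave -4.78 and -5.02. The granulocyte transcription factors Gfi1 (-3.37 and -3.55) and Cebpe (-3.10 and -3.34) fell with them. The member that rose was Ctsc, a lysosomal peptidase that activates granule proteases (0.80 and 0.50, adjusted p = 0.0013). Of 19 secondary and tertiary granule genes 17 fell and 1 rose, with a median of -2.23. Ltf, lactoferrin, gave -3.67 and -3.77, and Ngp gave -3.29 and -3.28. Itgb2l was not well above background at day 3, and was at least 9.0-fold lower there. Lyz2, lysozyme of neutrophils and macrophages alike, rose (1.47 and 0.44). Of 23 mature neutrophil and S100 genes 19 fell and 3 rose, with a median of -2.98; Wfdc17 (0.94 and 0.22), Fpr1 and Fpr2 were the ones that rose.

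Many of the strongest falls came from the stefin A gene cluster on chromosome 16, which encodes inhibitors of cysteine proteases. Cstdc5 gave -5.02 and -4.46, Stfa1 -4.19 and -4.39, Cstdc4 -4.05 and -3.95, and Stfa2l1 -4.15 and -3.80. All were low on both arrays. Csta2, of the same cluster, differed more between arrays than almost any other gene measured on both days, with -2.09 and -3.86. In experiment 1 its flox minus control log2 intensity was -4.80 at day 0 and -3.46 at day 3. In experiment 2 it was 0.59 and -0.57. Its ratio in experiment 1 thus compares signals far dimmer than those of control cells. The genes of this cluster resemble each other, and 2 pairs of probes share a long exact run. The 4 probes are shown with that run in capitals, 25 bases in the first pair and 22 in the second, since members that share it may not be separate measurements.
Cstdc5: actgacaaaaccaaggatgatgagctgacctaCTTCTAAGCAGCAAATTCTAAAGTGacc
Csta2: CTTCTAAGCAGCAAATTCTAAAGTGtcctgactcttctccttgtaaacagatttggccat
Stfa3: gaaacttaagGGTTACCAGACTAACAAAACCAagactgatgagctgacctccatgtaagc
Cstdc4: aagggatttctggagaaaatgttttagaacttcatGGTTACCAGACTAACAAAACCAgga
The probes of Stfa1 and Stfa2l1 share no run of more than 5 bases. Laid side by side at the best shift, the probes of Stfa1 and Stfa2 match at 40 of 60 bases, with a longest run of 9. Those of Stfa3 and Cstdc5 match at 35, with a longest run of 14, so these pairs may not be separate measurements either.

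Promoters of neutrophil genes were searched for the letters GAGGAAGT, a PU.1 site, and TTGCNNAA, a C/EBP site, on both strands. PU.1 and C/EBP factors are the transcription factors most closely tied to myeloid genes. The window runs from 250 bases before to 50 bases after the start in the RefSeq table of the GRCm38.p6 build, where 9 of 11 primary granule genes, 16 of 19 secondary and tertiary granule genes and 21 of 23 mature neutrophil genes were matched. The PU.1 letters were in 4 of 11 primary granule promoters (36.4%) and in 4 of 16 secondary granule promoters (25.0%). They were in 1 of 21 mature neutrophil promoters (4.76%), beside 3.2% of all 32851 promoters. The C/EBP letters were in 18.2%, 43.8% and 23.8% of the same promoters, beside 10.8% of all. For macrophage markers the PU.1 letters were in 8.7% of 23 promoters. The promoters of the strongest-falling members with a match are shown with the matching letters in capitals, S100a8 at chr3:90668821-90669120 on the plus strand with the PU.1 letters on the opposite strand, and S100a9 at chr3:90695672-90695971 on the minus strand with the C/EBP letters.
S100a8: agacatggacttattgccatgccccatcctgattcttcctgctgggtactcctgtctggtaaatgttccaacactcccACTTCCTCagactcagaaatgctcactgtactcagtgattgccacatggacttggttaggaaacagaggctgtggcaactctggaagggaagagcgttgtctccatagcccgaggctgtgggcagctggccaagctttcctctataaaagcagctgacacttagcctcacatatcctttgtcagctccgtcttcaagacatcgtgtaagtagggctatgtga
S100a9: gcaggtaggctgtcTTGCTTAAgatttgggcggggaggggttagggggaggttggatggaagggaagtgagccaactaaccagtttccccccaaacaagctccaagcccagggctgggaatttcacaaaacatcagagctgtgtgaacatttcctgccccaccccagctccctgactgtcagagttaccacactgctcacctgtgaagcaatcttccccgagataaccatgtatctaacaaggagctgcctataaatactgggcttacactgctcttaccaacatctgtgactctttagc
A match describes these letters only.

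The other blood lineages of the marrow fell as well. Of 20 measured megakaryocyte and platelet genes 19 fell and none rose, with a median of -2.41. Ppbp, a platelet chemokine, gave -4.31 and -3.20. Gp1ba, part of the platelet receptor for von Willebrand factor, gave -3.82 and -2.91, and Itga2b, the platelet integrin alpha IIb, gave -3.34 and -2.66. All of these fell further in experiment 1 than in experiment 2. The member that did not pass was Rgs18 (0.27 and 0.29). Of 14 erythroid genes 8 fell, none rose and 6 did not pass. The list's median was -0.91. Gata1, the erythroid and megakaryocytic transcription factor, gave -2.90 and -2.40, and the globin gene Hba-a1 gave -1.78 and -1.27. Of 15 eosinophil, basophil and mast cell genes 11 fell and none rose, with a median of -1.12 that was -2.02 with the processed ratios of the scanner software. Hdc, the enzyme that makes histamine, gave -2.50 and -2.70, and Prg2, the eosinophil major basic protein, gave -1.77 and -2.0.

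Probes above background on 1 day alone were kept and genes dim on both days were not, so the filter itself adds to such falls. Well above background on neither flox array at day 3 were 6 of the 15 eosinophil, basophil and mast cell genes. The same held for 8 of 18 B-lineage, 5 of 14 T and NK cell and 7 of 27 stem and progenitor genes. At day 0 it held for 1 T and NK cell gene and 0 in the other lists. Of 18 measured B-lineage genes 14 fell and 3 rose, with a median of -1.08 that was -1.99 with the processed ratios. Cd24a gave -3.20 and -3.59 and Il7r, the interleukin 7 receptor of lymphocyte precursors, gave -1.87 and -1.73. Myl4 (1.78 and 1.35), Cd79b (1.48 and 0.90) and Blnk (1.12 and 1.06) rose. Of 14 T and NK cell genes 8 fell and 2 rose, with a median of -0.36 (-0.59 with the processed ratios). Tcf7, a T-cell transcription factor, was not well above background at day 3 and was at least 2.18-fold lower. Of 15 dendritic cell genes 8 fell and 3 rose, with a median of -0.82. Ccr7 gave -1.88 and -1.35, whereas Batf3, a transcription factor of dendritic cells, rose (1.21 and 1.28). Of 24 stromal and endothelial genes 9 fell (beside 33.3% of all genes), 4 rose (beside 23.9%) and 11 did not pass. The list's median was -0.64. Col4a1, a basement membrane collagen, fell (-1.85 and -1.91), and Col1a1, a fibrillar collagen of stromal cells, did not pass (-0.54 and -0.62). Ibsp, bone sialoprotein, was not well above background at day 0 and was at least 2.37-fold higher at day 3.

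Stem and progenitor genes fell in 21 of 27 cases and rose in 2, with a median of -1.23. Myb, a transcription factor of progenitors, gave -4.09 and -4.06, nearly the same on both arrays. Cd34 gave -2.88 and -2.68. Kit, the stem cell factor receptor, and Mycn were not well above background at day 3, and Mycn was at least 7.98-fold lower. Lmo2 (0.65 and 1.01) and Etv6 (0.27 and 0.16) rose, and Hoxa9 stayed near 0 (0.01 and -0.02) without passing. In all, 891 genes were above background at day 0 on at least 1 array and on neither at day 3, and 177 genes were the reverse.

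The genes with the largest rise were smaller in change and more varied in function. Tmem176a and Tmem176b are neighbouring genes for membrane proteins of myeloid cells. Tmem176a gave 3.96 and 3.41, a mean of 12.8-fold (log2 change 3.68, SE 0.10, adjusted p = 5.64e-06), and Tmem176b gave 2.81 and 2.17. Cd55 and its copy Cd55b encode decay-accelerating factor, which protects cells from complement. Cd55 gave 3.37 and 3.09 and Cd55b 3.29 and 3.22; their probes share no run of more than 6 bases. Fgl2, a fibrinogen-like protein, gave 3.59 and 2.76, and Cp, ceruloplasmin, a copper enzyme that oxidizes iron, gave 3.18 and 2.61. The highest of all was 1700003M07Rik, a predicted gene, with 3.92 and 3.84.

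Others among the 15 have roles outside the usual macrophage lists. Raver2, an RNA-binding protein, gave 3.24 on both arrays. Pgbd5, derived from a transposase, gave 3.00 and 3.11, and Nrxn2, an adhesion protein of synapses, gave 2.63 and 3.04. A further Nrxn2 probe gave 0.77 and 0.75, the same direction at a far smaller size. Ascl2, a transcription factor, gave 2.84 and 2.61, Asb2, a ubiquitin ligase subunit, 2.57 and 2.68, and Rasgrp1, an activator of Ras, 2.83 and 2.41. Gpr18 gave 3.09 and 2.41 and Sult1a1, a sulfotransferase, 3.19 and 2.35. No array value among these 15 genes was under 2.17, but they were ranked on these same arrays. Of genes not above background at day 0, Ptprm was at least 3.68-fold higher at day 3, Gpr31b at least 3.26-fold, Shisa3 at least 3.15-fold and Uts2b at least 2.73-fold.

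**Figure D2:**
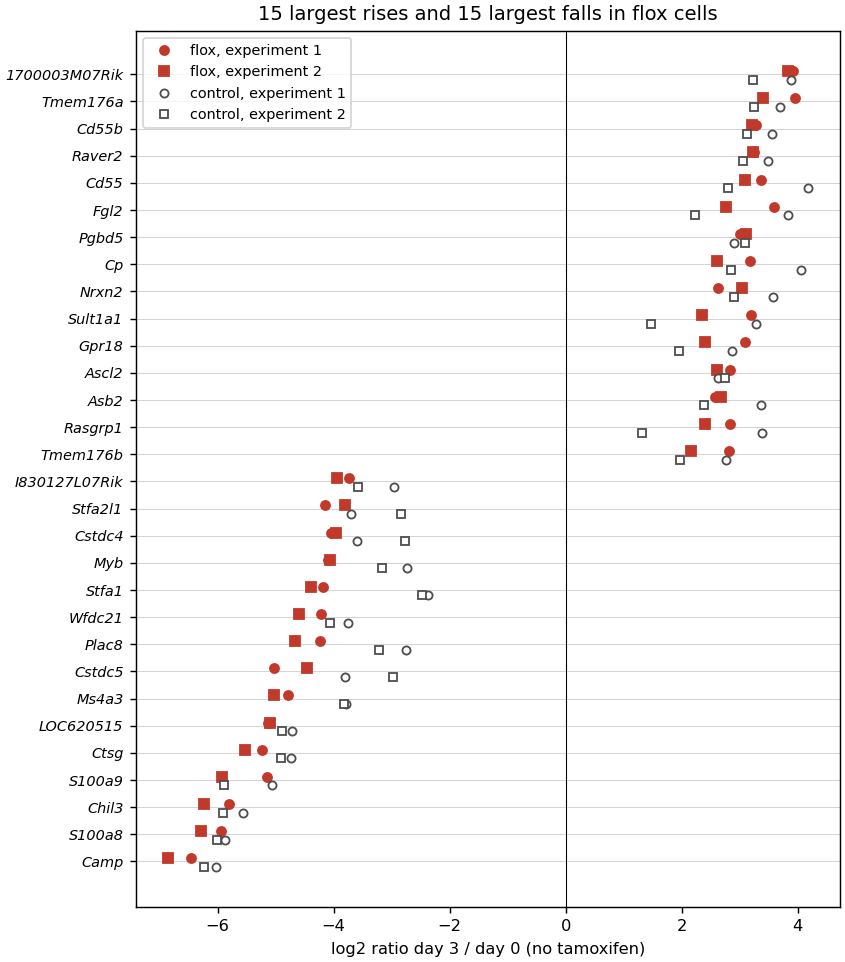
Log2 ratio of day 3 over day 0 (x axis) for the 15 genes with the largest rise and the 15 with the largest fall in untreated flox cells; filled red symbols are the flox arrays and hollow symbols the control arrays, circles for experiment 1 and squares for experiment 2. For several falls, such as Stfa1 and Plac8, both flox arrays lie well below both control arrays, and for the rises the symbols of both genotypes are mixed.

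Macrophage markers did not move as 1 block. Of 31 measured, 12 rose (beside 23.9% of all genes), 10 fell (beside 33.3%) and 9 did not pass. Csf1r is counted among the 10 by its brightest probe, although no direction is drawn from it. The list's median was 0.07. Apoe, an apolipoprotein that macrophages secrete, gave 2.41 and 2.29. The complement component genes C1qa (1.82 and 1.32) and C1qb (2.07 and 1.68) rose, as did Aif1, an actin-binding protein of macrophages (1.91 and 1.23). Vcam1, an adhesion molecule of resident marrow macrophages, fell (-2.52 and -2.28), and so did Gpnmb (-1.23 and -1.07) and Spp1, osteopontin (-0.93 and -1.67). Cd14, Fcgr1, Mertk and Itgam were near 0 and did not pass, with 0.01 and 0.13 for Cd14. Every measured marker was well above background on both arrays on both days, so the day 0 RNA also holds the RNA of these genes.

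Monocyte genes were lower in 10 of 19 cases and higher in 4, with a median of -0.69. Plac8 gave -4.23 and -4.66, Ly6c1 -2.93 and -2.78, and Ccr2, the receptor by which monocytes leave the marrow, -2.47 and -2.55. Ms4a6c (2.07 and 1.54), Itgal (1.69 and 1.54) and Klf4 (0.62 and 1.11) rose. Of 32 monocyte and macrophage transcription factor genes 10 rose and 12 fell, not far from the 23.9% and 33.3% of all genes. Spi1, which encodes PU.1, rose by the most, with 2.59 and 2.27. Junb (1.43 and 1.11) and Batf3 also rose, and Runx3 (-1.65 and -1.92) and Bhlhe40 (-1.02 and -1.01) fell. Cebpa, a C/EBP factor, did not pass (0.06 and 0.07).

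Cell cycle genes were lower at day 3. Of 50 measured mitosis and kinetochore genes 44 fell, none rose and 6 did not pass. The list's median was -0.84. Mki67, the nuclear antigen of dividing cells, gave -1.84 and -1.92, Cenpe, a kinetochore motor, -1.38 and -1.60, and Ccna2, cyclin A2, -1.24 and -1.36. The checkpoint kinase gene Bub1 gave -1.30 and -1.34. The 6 that did not pass were Bub3, Nuf2, Ccnb2, Cenpa, Ndc80 and Cdc25c, with arrays of opposite sign for Ccnb2 (0.19 and -0.49).

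DNA replication genes were more divided. Of 46, 30 fell, 7 rose and 9 did not pass. The list's median was -0.59. Uhrf1, which carries DNA methylation through replication, gave -1.83 and -1.35. Pola1, the catalytic subunit of DNA polymerase alpha, gave -1.26 and -1.63, and Mcm2, a subunit of the replicative helicase, gave -1.35 and -1.36. Cdc45, a partner of that helicase, rose (0.96 and 0.97), as did the clamp loader gene Rfc3 (0.96 and 0.86) and the histone mRNA binding protein gene Slbp (0.69 and 0.78). Pcna (-0.37 and -0.25) did not pass. Among 26 cell cycle inhibitors and G1 regulators 16 fell and 2 rose. The repressor E2f8 gave -1.57 and -1.52 and E2f7 -1.46 and -1.48. Cdkn2b, an inhibitor of cyclin D kinases, rose (0.94 and 0.85), and so did Ccnd1, cyclin D1 (0.65 and 0.91). Cdkn1a, p21, did not pass (0.22 and 0.03).

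The promoters of these genes were searched in the same RefSeq window, on both strands, for TTTGAA, the cell cycle homology region of mitotic genes, and for TTTNGCGC, an E2F site. The letters TTTGAA were in 75.6% of 45 promoters of 42 matched mitosis genes and in 13% of 46 promoters of 37 matched replication genes, beside 17.9% of all promoters. The letters TTTNGCGC were in 26.1% of the replication promoters and in 6.67% of the mitosis promoters, beside 1.38% of all. Each string of letters was counted separately. The promoters of Mki67 (chr7:135716330-135716629, minus strand), which holds TTTGAA in 2 places, and Espl1 (chr15:102296043-102296342, plus strand), which encodes separase, are shown with TTTGAA in capitals. Those of Uhrf1 (chr17:56304063-56304362, plus strand) and Pola1 (chrX:93632106-93632405, minus strand) are shown with the E2F letters in capitals, which in Pola1 lie on the opposite strand.
Mki67: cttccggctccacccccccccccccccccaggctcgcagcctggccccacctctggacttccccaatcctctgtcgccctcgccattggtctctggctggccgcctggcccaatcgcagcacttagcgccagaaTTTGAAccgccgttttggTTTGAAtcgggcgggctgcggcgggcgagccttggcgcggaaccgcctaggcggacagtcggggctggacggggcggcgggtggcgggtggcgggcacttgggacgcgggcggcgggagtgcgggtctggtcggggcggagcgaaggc
Espl1: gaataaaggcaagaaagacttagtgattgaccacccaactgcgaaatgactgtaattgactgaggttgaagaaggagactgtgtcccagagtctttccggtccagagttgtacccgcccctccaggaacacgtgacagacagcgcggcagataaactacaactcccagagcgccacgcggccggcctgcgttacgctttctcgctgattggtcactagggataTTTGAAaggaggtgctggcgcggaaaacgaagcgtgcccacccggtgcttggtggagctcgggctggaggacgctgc
Uhrf1: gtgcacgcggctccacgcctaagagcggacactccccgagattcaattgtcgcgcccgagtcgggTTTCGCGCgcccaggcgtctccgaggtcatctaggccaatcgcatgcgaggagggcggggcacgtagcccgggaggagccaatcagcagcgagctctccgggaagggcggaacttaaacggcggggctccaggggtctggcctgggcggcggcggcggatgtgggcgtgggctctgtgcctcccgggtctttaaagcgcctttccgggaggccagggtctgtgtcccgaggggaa
Pola1: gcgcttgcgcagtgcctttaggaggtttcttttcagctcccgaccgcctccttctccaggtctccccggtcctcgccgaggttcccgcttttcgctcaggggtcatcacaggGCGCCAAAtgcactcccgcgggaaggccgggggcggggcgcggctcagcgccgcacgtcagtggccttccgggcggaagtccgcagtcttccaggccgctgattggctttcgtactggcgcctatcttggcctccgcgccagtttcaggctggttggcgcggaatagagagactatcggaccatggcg
The lists were known to hold genes of these pathways, so the shares describe the lists.

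Genes of lipid handling rose more often than they fell. Of 24 measured cholesterol synthesis genes 16 rose and 2 fell, with a median of 0.45. Nsdhl gave 1.37 and 1.11, Insig1, which holds back the sterol sensor, 0.99 and 1.07, and Sc5d 0.79 and 1.09. Ebp (-0.55 and -0.37) and Dhcr7 (-0.38 and -0.43) fell. The letters TCACNCCAC, a sterol response element, were in 1 of 20 of their promoters (5.0%), beside 1.24% of all. Nothing is drawn from 1 match. Of 30 LXR target and lipid handling genes 14 rose and 8 fell, with a median of 0.08 (0.15 under median centring). Ch25h, which makes 25-hydroxycholesterol, gave 1.84 and 2.33 and Pltp, a phospholipid transfer protein, 1.37 and 1.33. Fabp4 (-1.60 and -1.78) and Plin2, a lipid droplet protein (-1.28 and -1.0), fell.

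Of 42 lysosomal cathepsins and hydrolases 10 rose (beside 23.9% of all genes) and 23 fell (beside 33.3%), with a median of -0.27 that was -0.15 under median centring. Ctsk, cathepsin K, gave -1.69 and -1.74 and Lipa, acid lipase, -1.10 and -1.12. Acp5, the phosphatase TRAP, rose (1.62 and 1.26), as did Ctsf (1.45 and 1.33). Of 36 lysosomal membrane and proton pump genes 8 rose, 14 fell and 14 did not pass, which is close to the shares over all genes. The mucolipin channel genes Mcoln3 (-2.18 and -1.30) and Mcoln2 (-1.64 and -1.29) fell and Laptm4a (1.56 and 1.44) rose. The CLEAR letters TCACGTG were in 23.7% and 15.8% of the promoters of these 2 lists, beside 3.77% of all.

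Genes of glycolysis and hypoxia were lower in 22 of 33 cases and higher in 3, with a median of -0.80. Pkm, pyruvate kinase, gave -1.59 and -1.07, Slc16a3, a lactate carrier, -1.37 and -1.43, and Egln3, an oxygen sensor, -1.42 and -1.78. Ndrg1 rose (1.78 and 1.57), and Hif1a did not pass (0.06 and -0.32). Of 20 matrix metalloproteinase and inhibitor genes 13 fell and only Mmp14 rose, with a median of -0.69. Mmp8, the collagenase of neutrophils, gave -2.86 and -3.16, and Mmp13 gave -1.97 and -1.95. Mmp14 was unequal between arrays (0.55 and -0.00).

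Of 41 interferon-stimulated genes 16 rose, 4 fell and 21 did not pass, beside 23.9% and 33.3% of all genes that rose and fell. The list's median was 0.19. Irf7 gave 1.55 and 1.66 and Ifit3 1.58 and 1.40, while the oligoadenylate synthetase gene Oas3 fell (-1.22 and -0.92). Of 25 complement genes 10 rose and 4 fell; Cfb, factor B, rose (2.05 and 1.82) and Clu, clusterin, fell (-3.12 and -2.86). Of 30 Fc receptor and ITAM adaptor genes 10 rose and 12 fell, not far from those shares. Fcgrt, the neonatal Fc receptor, gave 1.95 and 1.56 and Fcgr4 1.65 and 1.29. Trem3 gave -2.25 and -2.30 and Cd300lf -1.80 and -1.71. Of 28 Toll-like receptor and signalling genes 11 rose and 8 fell, and the sign of their median (0.04) turned under median centring (-0.00). Tlr8 gave 1.5 and 1.06 and Tlr13 -0.93 and -1.03. Of 15 MHC class II pathway genes 5 rose and 3 fell. The invariant chain gene Cd74 gave 1.51 and 2.02 and H2-Aa 1.17 and 1.60. Ciita, their activator, did not pass (-0.55 and -0.27).

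Of 22 chemokine genes 8 fell and 5 rose, about the shares over all genes (33.3% and 23.9%), with a median of -0.28. Cxcl3 gave -2.75 and -2.95 and Cxcl1 -1.59 and -1.29, both neutrophil attractants, whereas Cxcl16 rose (0.75 and 0.87). Of 19 chemokine receptor genes 10 fell and 3 rose. Cxcr1 gave -2.19 and -2.10 and Ltb4r1, a leukotriene receptor, -2.43 and -2.30. Of 32 haematopoietic growth factor receptor genes 15 fell and 7 rose. Il1r2, the decoy receptor for interleukin 1, gave -2.68 on both arrays. Il2ra, the alpha chain of the interleukin 2 receptor, rose (1.97 and 1.52). Of 16 integrin genes 6 fell and 4 rose, close to the shares over all genes, and Itgb7 gave -2.46 and -2.32. Of 27 scavenger and efferocytosis receptor genes 9 fell and 8 rose, also close to those shares. Cd5l, a secreted protein of macrophages, gave 1.79 and 1.85, and Stab1 gave -1.61 and -1.68.

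**Figure D3:**
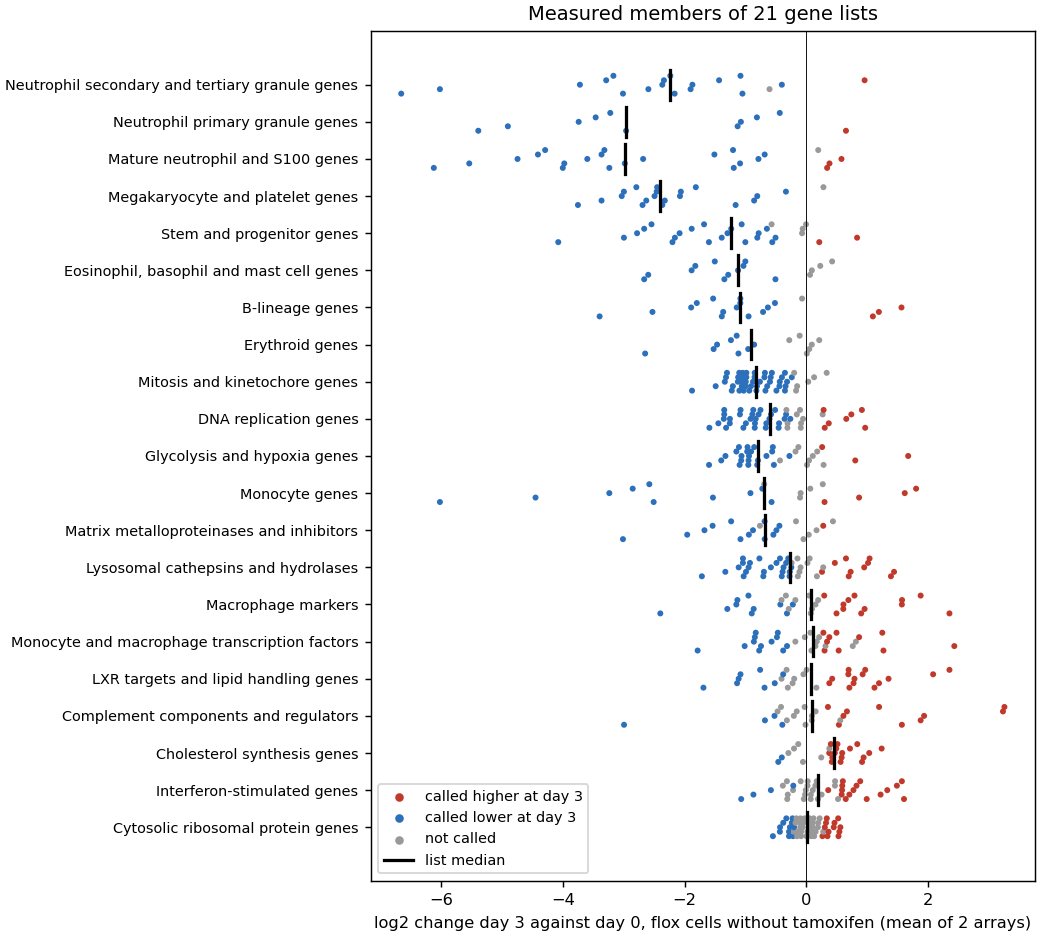
Log2 change of day 3 against day 0 (x axis, mean of the 2 arrays) of every measured member of selected gene lists in untreated flox cells; red points were called higher, blue points lower and grey points not called, the black bar is the list median, and vertical offsets only separate points. Medians run from -2.98 for mature neutrophil genes to 0.45 for cholesterol synthesis genes.

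The next lists stand beside 23.9% of all genes that rose and 33.3% that fell. Of 53 cytosolic ribosomal protein genes 12 rose, 12 fell and 29 did not pass. The median was 0.02, with 0.16 in experiment 1 and -0.12 in experiment 2, and 0.31 under median centring, and no member's mean change was beyond 0.56 in size. Of 46 respiratory chain genes 12 rose and 9 fell, with a median of 0.04 that was 0.19 under median centring; Ndufa10 gave 1.17 and 1.07 and Ndufs8 1.04 and 1.12. Of 35 MYC target and ribosome biogenesis genes 7 rose and 10 fell, close to the shares over all genes. Pes1 gave 1.27 and 1.30 and Ldha -0.97 and -1.16. Of 28 TREX and mRNA export genes 5 rose and 13 fell, with a median of -0.24. The export receptor gene Nxf1 gave -1.11 and -0.68 and the adaptor gene Alyref -1.15 and -0.58, whereas the THO subunit gene Thoc3 rose (0.79 and 0.80). Thoc1 (0.03 and 0.23), Thoc6 and Thoc7 did not pass. Of 28 immediate early and ERK feedback genes 13 fell and 4 rose, with Dusp6, an ERK phosphatase, at -1.25 and -0.60. Of 20 iron handling genes 9 fell and 3 rose; the iron exporter gene Slc40a1 gave -1.81 and -1.63.

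Control cells without tamoxifen share no RNA with the flox cells and were handled in the same experiments. In them 10321 genes (57.3%) changed, 4205 up (23.4%) and 6116 down (34.0%). Of the genes that rose in flox cells 72.9% also rose in control cells, which is 74.7% of those that rose there. Of the genes that fell in flox cells 78.4% fell in control cells, which is 76.8% of those that fell there. Opposite calls were made for 35 and 61 genes. The difference itself, the flox change minus the control change, passed for 517 genes (2.87%), 259 higher (1.44%) and 258 lower (1.43%). An unadjusted p under 0.05 was reached by 4153 genes. This count depends on the fit: 2 genes passed without the experiment as a block, 5 with the ratios as the scanner software gave them and 0 with only the arrays of these 2 groups. It was 0 without either of the untreated flox arrays, 156 without control replicate 1 and 0 without control replicate 2, and 0 to 30 without 1 of the tamoxifen arrays, which only lend their spread. The differences below are therefore given within each experiment as well, that of experiment 1 first.

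The clearest difference by list was in the cell cycle. The fall of mitosis genes was smaller in flox cells than in control cells, where 49 of 50 fell with a median of -1.53. The difference passed for 33 members in the direction of flox cells and for 1, Pttg1 (securin, -0.60 and -0.72), in the other direction, beside 1.44% and 1.43% of all genes. The median difference was 0.82, and 48 of 50 members lay above 0, as did 49.9% of all genes. It was 0.93 in experiment 1 and 0.69 in experiment 2. The median stayed between 0.68 and 0.96 over all settings and left-out arrays, while the number of members passing fell to 0 without the block, with the scanner ratios and with the 2 groups alone, and to between 0 and 4 with any 1 array left out. Bub1 fell by 1.32 in flox cells and by 2.58 in control cells (difference 1.26, adjusted p = 0.049, with 1.58 and 0.94 within the experiments). Ccna2 fell by 1.30 and by 2.31 (difference 1.01, adjusted p = 0.038, with 1.08 and 0.93). Mki67 fell by 1.88 and by 2.69 (difference 0.81, adjusted p = 0.039, with 0.94 and 0.68). Ndc80, a kinetochore gene that did not pass in flox cells, had the largest difference of the list, 1.37 (adjusted p = 0.039), with 1.8 and 0.94. Ube2c, a mitotic ubiquitin enzyme, had 1.29, with 1.31 and 1.27; both were singled out after their values were seen.

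Replication genes pointed the same way with more spread. The control median was -1.17, with 39 of 46 lower and 2 higher. The difference passed for 8 of 46 and had a median of 0.61, 0.97 in experiment 1 and 0.34 in experiment 2; it lay above 0 for 42. Cdc45 was higher by 1.22 (adjusted p = 0.049), with 1.73 and 0.70 in the experiments. Uhrf1 was higher by 1.03 (adjusted p = 0.038), with 1.23 and 0.82, and Mcm2 by 0.91 (adjusted p = 0.039), with 1.18 and 0.65. The number passing was 0 without the block, with scanner ratios and with the 2 groups alone, 0 or 1 with any 1 array left out, and 19 under median centring.

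**Figure D4:**
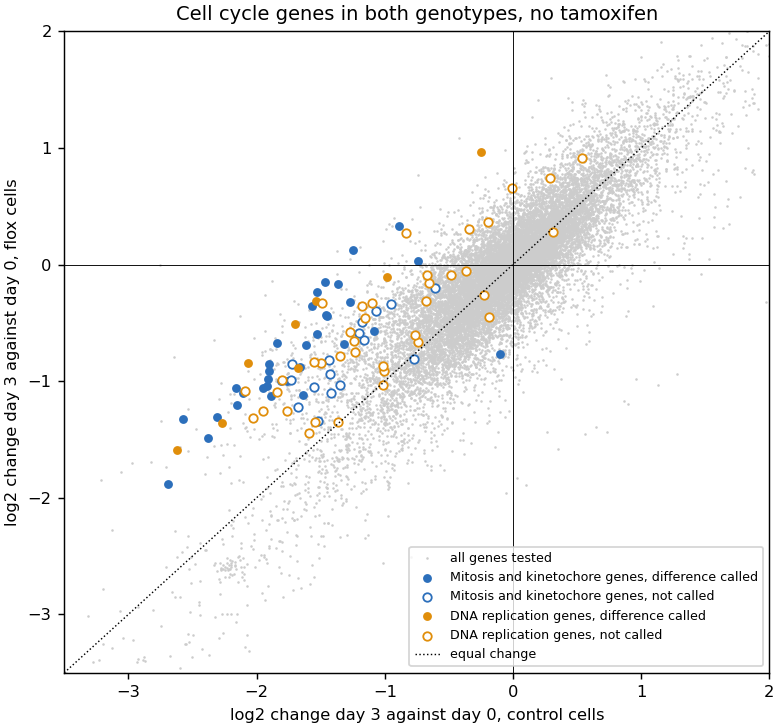
Log2 change of day 3 against day 0 in control cells (x axis) and in flox cells (y axis), both without tamoxifen, means of 2 arrays; grey points are all genes in this range, blue points mitosis genes and orange points replication genes, filled where the difference passed. Nearly all coloured points lie above the dotted line of equal change, since the fall was smaller in flox cells.

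The single channels show on which day the genotypes differed. For mitosis genes the median flox minus control intensity at day 0 was -0.01 in experiment 1 and 0.24 in experiment 2 on the log2 scale. At day 3 it was 0.97 and 0.89, and 48 of 50 genes were higher in flox cells in both experiments, as were 31.4% of all genes. For replication genes it was -0.03 and 0.39 at day 0 and 0.95 and 0.73 at day 3. Ccna2 differed by 0.00 and 0.01 at day 0 and by 1.07 and 0.95 at day 3. These channel values have no test, and within an experiment both genotypes carried the same dye on the same day.

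Several lists of other marrow lineages had members whose difference passed in the opposite direction, beside 1.43% of all genes. Neutrophil primary granule genes were higher in flox cells at day 0 by a median of 1.21 and 0.46, and by 0.82 and 0.19 at day 3. Their fall was larger, with the difference passing as lower for 5 of 11 members. Ms4a3 was higher at day 0 by 2.01 and 1.60 and its change differed by -1.10 (adjusted p = 0.031), with -1.0 and -1.20. Stfa1 was higher at day 0 by 2.92 and 2.23 and its change differed by -1.86 (adjusted p = 0.036), with -1.81 and -1.91. Not all members were higher at day 0. In both experiments 8 of 11 primary granule genes were higher and 2 lower, and 13 of 23 mature neutrophil genes were higher and 3 lower. Elane had -0.90 and -0.38 at day 0, and Wfdc17 -1.12 and -0.87. In the stefin cluster, Cstdc4 (-1.03 and 0.72) and Stfa2l1 (-0.55 and 0.69) were lower in experiment 1 alone. The change of Plac8 differed by -1.46 (adjusted p = 0.017), with -1.49 and -1.44, and it was higher at day 0 by 1.35 and 0.91. Megakaryocyte genes were higher at day 0 by 0.87 and 0.26 and within 0.15 of control cells at day 3. Stem and progenitor genes were higher at day 0 by 0.80 and 0.29, with Myb at 1.41 and 0.76. The difference passed as lower for 3 of 20 and 5 of 27 members, and for 7 of 15 eosinophil, basophil and mast cell genes. No erythroid (14), T and NK (14) or dendritic cell gene (15) passed by limma in either direction at an adjusted p under 0.05, with median differences of -0.17, -0.26 and -0.29. At an unadjusted p under 0.05 there were 5, 7 and 6 of them. Of 24 stromal and endothelial genes 1 passed as higher and 1 as lower, with a median difference of 0.05, and their levels were higher on both days, by 0.80 and 0.49 at day 0 and by 0.49 and 0.54 at day 3. Macrophage markers differed by -0.04 and 0.09 at day 0 and by -0.21 and -0.07 at day 3. The part of these marrow lineages in the cell cycle difference was not tested.

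**Figure D5:**
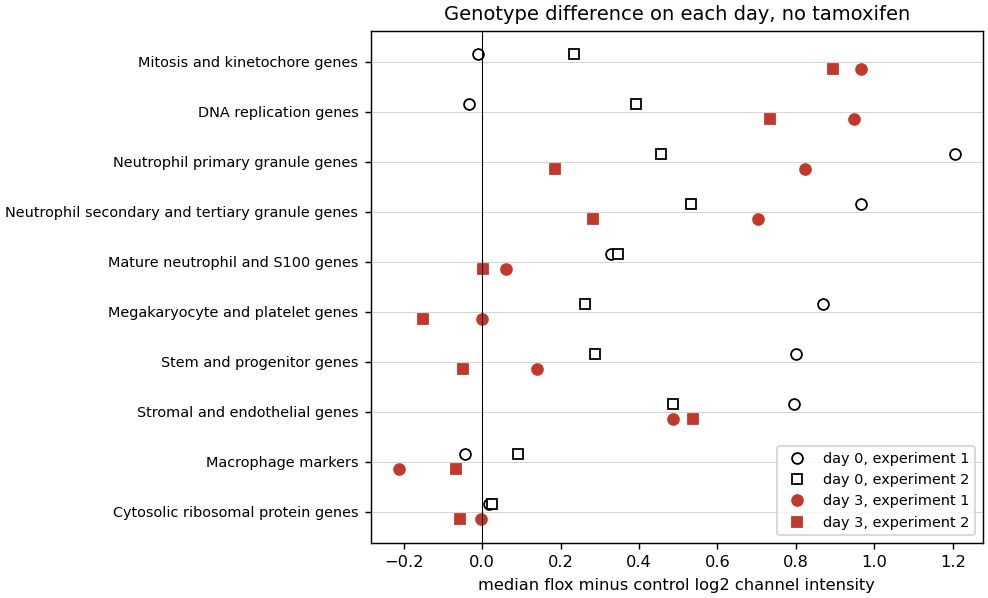
Median flox minus control log2 channel intensity (x axis) for 10 gene lists, hollow symbols for day 0 and red symbols for day 3, circles for experiment 1 and squares for experiment 2. At day 3 the cell cycle lists lie at 0.73 to 0.97 in both experiments. Primary granule genes are then at 0.82 in experiment 1 and at 0.19 in experiment 2. Granule, megakaryocyte and stem lists are higher at day 0 than at day 3.

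Single genes with the largest difference mostly differed at day 3. Chac1, a glutathione-degrading enzyme of the amino acid stress response, had ratios of -0.15 and 0.14 in flox cells and -2.41 and -3.09 in control cells. Its difference was 2.75 (SE 0.40, adjusted p = 0.038), with 2.26 in experiment 1 and 3.23 in experiment 2. Gpr84, a receptor for fatty acids, had -0.32 and 0.05 against -2.50 and -1.26, a difference of 1.75 (adjusted p = 0.033), with 2.18 and 1.31. Dtl, Hells and Timeless act in DNA replication and chromatin, and Cdkn3 is a cell cycle phosphatase. Their differences were 1.69, 1.68, 1.41 and 1.49 (adjusted p = 0.037, 0.039, 0.031 and 0.023). Within the experiments Dtl had 1.91 and 1.46, Hells 2.10 and 1.26, Timeless 1.62 and 1.20, and Cdkn3 1.56 and 1.42. Uchl1, a deubiquitinase, rose in flox cells (0.92 and 0.61) and gave -1.10 and -0.37 in control cells, a difference of 1.5, with 2.02 and 0.98. In all of these the flox arrays were above both control arrays.

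In the other direction stood Ccl8, a monocyte chemokine, with 0.73 and 0.23 in flox cells and 3.67 and 2.86 in control cells. Its difference was -2.78 (SE 0.18, adjusted p = 0.017), with -2.94 and -2.63. Thbs1, thrombospondin, gave -2.58 and -3.48 against 0.13 and -0.75, a difference of -2.72, with -2.71 and -2.73. Cd83, an activation marker, gave -0.36 and -0.29 against 2.18 and 1.77, and Nrg1, a growth factor, -0.81 and -1.07 against 1.61 and 0.95. Bcor, a transcriptional corepressor, gave -1.0 and -1.07 against 1.11 and 1.15. Cd83, Nrg1 and Bcor differed by -2.30, -2.22 and -2.16. Within the experiments Cd83 had -2.54 and -2.06, Nrg1 -2.42 and -2.02, and Bcor -2.11 and -2.22, and in the channels each was at -1.51 or lower, flox minus control, at day 3 in both experiments. The cholesterol exporter genes Abca1 and Abcg1 differed by -1.34 and -1.07, and Egr1 by -1.33, with adjusted p = 0.038, 0.049 and 0.039; they were singled out after their values were seen. Within the experiments Abca1 had -1.53 and -1.16, Abcg1 -1.48 and -0.66, and Egr1 -1.75 and -0.91. An immunoglobulin gamma heavy chain transcript (ENSMUST00000103418) differed by -2.05, with -2.46 and -1.63, and was higher in flox cells at day 0 by 2.23 and 2.20.

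For 3 of the genes with the largest differences the flox minus control intensity was -0.58 or lower on both days in both experiments. The transcript 6720422M22Rik had a flox minus control intensity of -2.26 and -3.29 at day 0 and of -0.83 and -1.34 at day 3, and was well above background on 1 untreated flox array at day 0 and on neither at day 3, so that these values and its difference are only those of a signal near background. Gm3651 and Gm4148, are both annotated as similar to gag protein. Gm3651 had -0.58 and -1.18 at day 0 and -2.16 and -3.93 at day 3. Gm4148 had -1.08 and -1.25 at day 0 and -2.35 and -4.17 at day 3. Their annotation is alike, so their values may not be separate measurements.

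The same flox cells with tamoxifen share their day 0 RNA with the untreated arrays, so a chance value of that RNA enters both. Their change differed from the untreated one for 1621 genes (9.01%), 872 higher (4.84%) and 749 lower (4.16%). Of the 15 genes that rose most without tamoxifen, 14 were lower with it and Sult1a1 was not called. Nrxn2 gave 2.63 and 3.04 without and 0.00 and 0.11 with tamoxifen, and Raver2 3.24 on both arrays without and 0.56 and 0.52 with it. Of the 15 largest falls only Wfdc21 differed. The 15 rises were ranked on the same untreated arrays, so nothing is drawn from that count. Mcoln3 gave -2.18 and -1.30 without and 1.53 and 2.29 with tamoxifen, and Cd83 gave -0.36 and -0.29 without and 2.61 on both arrays with it.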

How the data were processed

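Both channels of 8 dual-colour arrays were read, 2 for each of 4 groups. Per the file headers and the submitters' processing notes, the authors extracted the spots with Agilent Feature Extraction 10.7.3.1. The deposited scanner files give each spot's mean and local background intensity, its processed intensity, its log10 ratio of red over green after dye normalization, and flags with other information such as saturation. The deposited value table gives log10 ratios with no stated scale or direction; they equalled the scanner files' log10 ratios, turned to day 3 over day 0, within 5e-10.

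Here, intensities were corrected with normexp (offset 50), normalized by loess within each array and expressed as log2 ratios of day 3 over day 0, also on the dye-swapped arrays. Control spots and spots with outlier flags were left out. Repeated spots of a probe were averaged, probes well above background on both arrays of at least 1 group on either day were kept (22407), and the brightest probe stood for its gene. RefSeq tables (GRCm38.p6) named 30307 of 39429 probes, and other names are those of the array's design on mm9. All 8 arrays were fitted with limma 3.58.1 in R 4.3.3, with 4 group means and the experiment as a block, and p-values were adjusted by Benjamini-Hochberg over 18000 genes. Genes were called at an adjusted p under 0.05. The fit was tested on simulated data. The experiment number is 1 and the same as slide and dye orientation, and deviations of same-numbered arrays from their group means correlated at 0.31 to 0.63 between untreated flox cells and the other groups. Single-channel intensities, for differences between genotypes on 1 day, were quantile-scaled between arrays on their average. A probe not well above background on both arrays of a day has only a bound: brighter over dimmer, against the higher of the lowest signal well above background and the dim probe's own. The number of arrays limits the precision.

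The members and the 40 gene lists were chosen with earlier results of these data known. Named genes are Thoc5, Csf1r and Csf1, the 15 largest called rises and falls measured on both days, the 5 largest bounds in each direction, the 8 largest called differences each way in the other comparisons, up to 5 leading members and 3 members against the majority of each list, members given as not passing, and the 6 genes whose 2 arrays differ most. The alternatives tried cover the block, background and dye correction, centring, the filter on dim probes, the choice of probe, the arrays fitted and each array left out. A further rule asked for a fold of at least 2. Results for a few list members are not reported here.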

Additional observations from a re-analysis of the deposited data

Results flagged for a closer look

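The change from day 0 to day 3 differed between untreated flox and control cells for 49 genes named by rule or leading a list. The test was limma's of the difference itself, at a Benjamini-Hochberg adjusted p under 0.05. Other genes given in the text that passed it, such as Ndc80, Pttg1, Abca1, Abcg1 and Egr1, are not among the 49. Values are flox minus control on the log2 scale, and the dependence of these calls on the fit is given in the report.

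Among genes of the neutrophil and monocyte lists the difference was -0.57 for Ctsg, -1.10 for Ms4a3, -1.35 for Cstdc5, -0.51 for Wfdc21, -1.86 for Stfa1, -0.87 for Gfi1, -0.64 for Itgb2l, -1.19 for Wfdc17, -1.46 for Plac8 and -1.01 for F13a1. Among stem cell, platelet, lymphoid, mast cell and stromal genes it was -1.13 for Myb, -1.07 for Clec1b, -2.72 for Thbs1, -0.92 for Jchain, 0.69 for Myl4, -0.87 for Ear2, -0.69 for Cpa3, -0.77 for Emcn and 0.63 for Ibsp. For genes with the largest bounds it was -0.87 for Clca3a1 and -0.90 for Mogat2. Cell cycle genes had positive values, with 0.81 for Mki67, 0.89 for Cenpe, 1.26 for Bub1, 1.01 for Ccna2, 1.03 for Uhrf1, 0.91 for Mcm2, 1.22 for Cdc45, 1.69 for Dtl, 1.68 for Hells, 1.49 for Cdkn3 and 1.41 for Timeless. Other positive values were 2.75 for Chac1, 1.75 for Gpr84, 1.69 for 6720422M22Rik and 1.5 for Uchl1. The other largest negative values were -2.78 for Ccl8, -2.30 for Cd83, -2.22 for Nrg1, -2.17 for Gm3651, -2.16 for Bcor, -2.10 for Gm4148 and -2.05 for ENSMUST00000103418. Receptors, secreted proteins and enzymes of the remaining lists had -0.76 for Clu, -1.0 for Il2ra, -1.21 for Cd5l, -1.11 for Dusp6, -0.53 for Tgfbr2 and 0.52 for Aldoc. The probes of Clca3a1, Itgb2l, Mogat2, 6720422M22Rik, Jchain, Cpa3, Emcn and Ibsp were not well above background on either flox array of 1 of the days, so their values are not sizes of a difference and no order is read from them.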

How the results depend on the processing

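The change from day 0 to day 3 in untreated flox cells kept a count within 1.5 times of 10306 called genes under the other settings, and gave 1890 with a fold of at least 2 as well. With 1 array left out the count ran from 5894 to 10968; it was 5894 without flox replicate 1 and 6153 without flox replicate 2, where the lone array is assumed to vary like the other groups. The difference from control cells gave 517 calls, 711 with median centring, 5 with the processed log ratios of the scanner software and 5 with the deposited value table, 0 with the arrays of the compared groups only and 158 with a fold of at least 2. Leaving out 1 array gave 0 to 156. With the processed log ratios 20% of the calls were higher, beside 50.1% in the reported fit. The change with minus without tamoxifen gave 1621 calls, 2908 with the day 0 RNA as a random block, 4668 with the arrays of the compared groups only, 475 with a fold of at least 2 and 223 to 2377 with 1 array left out, the lowest without flox replicate 2. Without the experiment as a replicate block, the 3 counts were 8136, 2 and 469. The causes of these shifts were not tested.

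Among single genes, Csf1r turned to 0.088 with median centring and to 0.36 with the mean of all probes, and Iigp1 to 0.031 with the mean of all probes. With 1 array left out, Eif4ebp2 ran from -0.43 to 1.37, Id1 from -0.32 to 1.33, Slco4a1 from -0.44 to 0.30 and ENSMUST00000101511 from -1.26 to 0.36. The flox minus control difference of Csf1 turned to 0.034 with the mean of all probes and ran from -0.45 to 0.040 with 1 array left out. The tamoxifen difference of Csf1r turned to -0.098 with median centring, to -0.023 with the processed log ratios and with the value table, and to -0.019 with the mean of all probes, and ran from -0.018 to 0.042 with 1 array left out. Of the values for named genes, 2963 stayed on their side of the threshold under other settings and 127 lost the call; with 1 array left out these were 2293 and 211. With 2 arrays a group, precision rests on the spread shared across genes.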

Other observations

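The genes whose 2 untreated flox arrays differed most, among those measured on both days on both arrays, were not led by any marrow lineage. Eif4ebp2, a translation repressor, gave 1.49 in experiment 1 and -0.55 in experiment 2. Id1, an inhibitor of DNA binding that BMP signals raise, gave -0.38 and 1.39, and with tamoxifen -4.18 and -1.83. The cystatin gene Csta2 gave -2.09 and -3.86, and in experiment 1 its signal was far dimmer than in control cells on both days. Slco4a1, an organic anion carrier, gave -0.91 and 0.78, and the transcript ENSMUST00000101511 gave 0.34 and -1.24. ATP8, named for a mitochondrially encoded subunit of ATP synthase, gave 2.01 and 0.29. No gene changed by more than 2-fold in opposite directions on the 2 arrays.

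Of the called genes, 2160 have a further probe that was kept. For 724 of them a further probe had the opposite sign, for 461 at an unadjusted p under 0.05 in limma. These values bear on genes with 1 probe named in the report, since most rest on the brightest probe alone.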
